A study of Mus musculus with 16 samples.

Results

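The tumour necrosis factor (TNF) ligands and receptors of an inflammation PCR panel were followed in mouse colonic mucosa. They were taken by gene name: Tnf, Lta, Ltb, Ltbr, Fas, Fasl, every name beginning Tnfsf or Tnfrsf, and the assays listed as Cd and Cdlg, which are Cd40 and Cd40lg with their digits lost in the deposited table. The rule found 28 genes of the panel's 584, read by 29 assays of 648. Lta was not analysed here, and Tnfrsf1a alone was read by several assays.

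The 16 samples formed 4 groups of 4. Healthy mice received PBS, a buffer, both into the rectum and by mouth. The DNBS group received intrarectal dinitrobenzene sulfonic acid, a hapten that causes colitis, with oral PBS. The DNBS_CEC group received intrarectal DNBS with oral CEC, which the labels do not spell out, and the DNBS_Nissle group intrarectal DNBS with oral Nissle, the name of a probiotic Escherichia coli strain. The labels give no strain, age or time point. RNA of the mice was pooled before measurement according to the series description, while each sample has its own number, so a sample may stand for 1 mouse or for several, and p-values measure only the spread between these samples.

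TNF family ligands are mostly trimeric proteins on immune cells, some of them shed, and their receptors carry either a death domain or motifs that recruit TRAF adaptors. TNF itself acts through TNFR1 (Tnfrsf1a), found on most cells, and TNFR2 (Tnfrsf1b), found mainly on immune and endothelial cells, and both lead to NF-kB. Other pairs of the family costimulate T cells, kill target cells or sustain B cells, and antibodies to TNF are used against inflammatory bowel disease.

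Levels are given as −ΔCt, the mean threshold cycle (Ct) of 13 reference genes less the gene's own Ct. This is a log2 scale on which 1 unit more is about a doubling of RNA. Levels are compared between samples of one gene, never between genes. A Ct above 28 counted as not detected and was set to 28, so such a value is only an upper bound of the level. Sums of marker lists are an exception to both rules. They add the levels of several genes on a linear scale, and undetected wells add nothing to them. A difference passed when its adjusted p in limma was under 0.05 over all genes tested, and differences are given ± SE (n = 4 per group). In bulk mucosa, fewer cells of a type and less RNA per cell cannot be told apart.

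Between 528 and 564 assays were detected per sample: 528 to 539 in healthy samples and 548 to 564 in the others. The mean reference Ct lay between 18.69 and 20.12. Krt8, the only listed epithelial marker read here, was detected in all 16 samples. The T cell markers Cd4 and Cd28, the B cell marker Cr2 and the myeloid markers Itgam, Cd14, Cd163 and Mrc1 were also detected in all of them, while markers of stroma and muscle were not analysed. Among the 23 members tested, DNBS_CEC sample 2 was the highest of its group for 14, and DNBS_Nissle sample 7 the lowest of its group for 12. In the table, 12 of 464 member values lay within 2e-06 cycles of the average of their group's remaining samples. These were taken for filled-in gaps. A further 30 had 4 or fewer decimals, and the reason was not tested.

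Of the 28 members, 18 were detected in all 16 samples and 2 in 0 samples. Detected everywhere were Tnf, Tnfrsf1a, Tnfrsf1b, Ltb, Ltbr, Tnfrsf14, Tnfsf9, Tnfrsf4, Cd40, Tnfrsf18, Tnfsf15, Fas, Tnfsf10, Tnfsf11, Tnfrsf11b, Tnfsf12, Tnfsf13 and Tnfsf13b. Among these, Tnfrsf14 in DNBS sample 2 and Tnfrsf18 and Tnfsf10 in DNBS_Nissle sample 1 held filled-in values. Tnfrsf9 was detected in 15 samples. Tnfsf14, Tnfsf8, Fasl and Tnfrsf19 were detected in 14 each, counting a filled-in value of Tnfsf8 (DNBS_CEC sample 6) and Fasl (DNBS_Nissle sample 4). These 23 genes were tested in every comparison. The other 5, Tnfsf4, Cd40lg, Tnfrsf8, Tnfsf18 and Tnfrsf25, were detected too rarely to be tested.

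**Figure D1:**
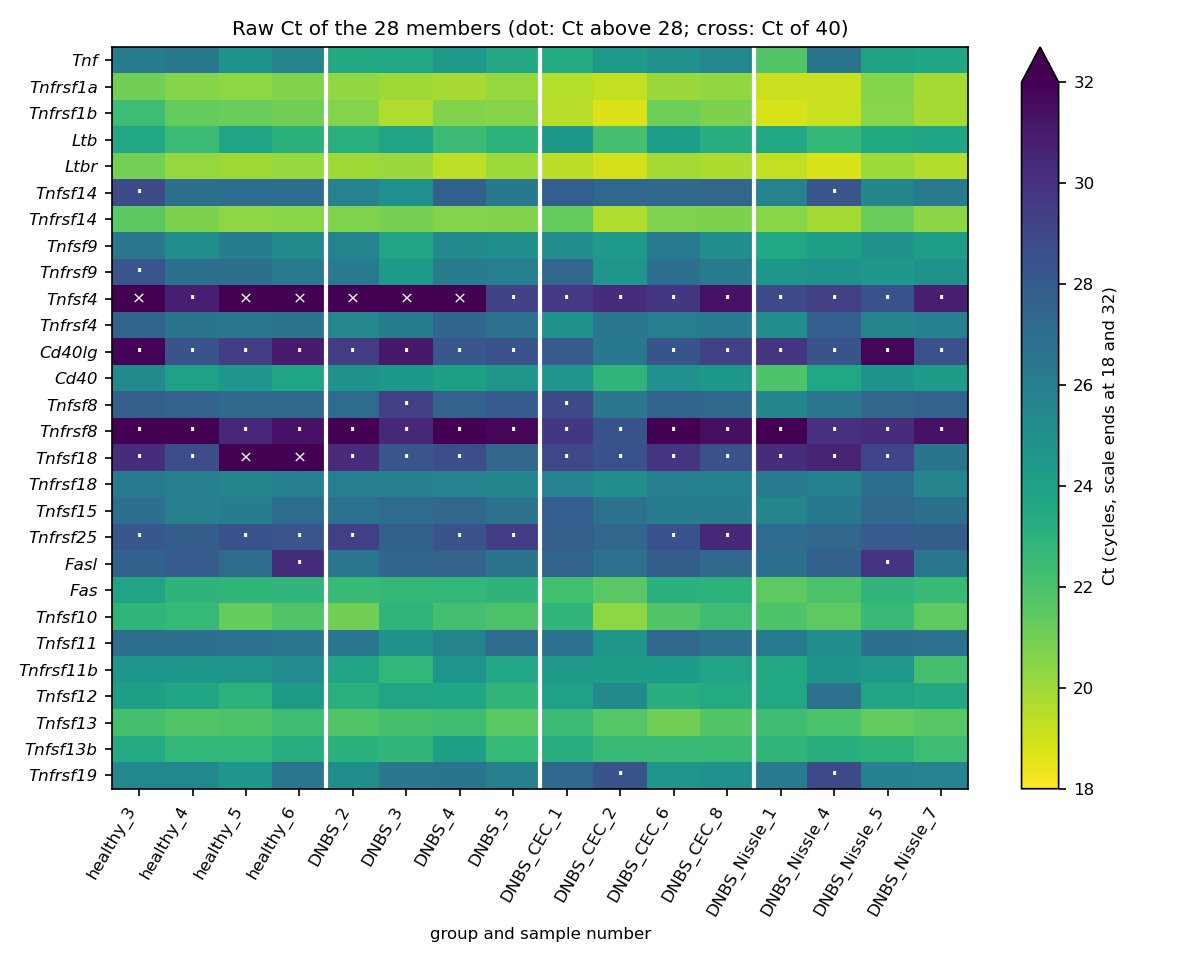
Raw Ct of each of the 28 members (vertical) in each of the 16 samples (horizontal, white lines between groups); yellow is a low Ct and dark a high one, a dot marks a Ct above 28 and a cross a Ct of 40, no amplification. Dots and crosses gather in 5 genes, Tnfsf4, Cd40lg, Tnfrsf8, Tnfsf18 and Tnfrsf25.

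The promoters of Tnf, Tnfrsf1b and Tnfrsf9 are shown because each of these genes had the lowest p of the family in 1 of the 3 comparisons with healthy mucosa. RefSeq starts on GRCm38.p6 were matched for 22 members (26 starts); Tnfsf9, Tnfsf4, Cd40lg, Cd40, Tnfrsf11b and Tnfsf12 had none. Each line gives the 250 bases before a start, 5′ to 3′ on the gene's strand. Capitals mark 3 motifs: a TATA box (TATAAA, sense strand only), a kappaB motif (GGG, any 2 bases, then TTTCC, on either strand), the class of site bound by NF-kB, and an AP-1 motif (TGANTCA, either strand), bound by Fos and Jun.

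Tnf, chr17:35202008-35202257, minus strand: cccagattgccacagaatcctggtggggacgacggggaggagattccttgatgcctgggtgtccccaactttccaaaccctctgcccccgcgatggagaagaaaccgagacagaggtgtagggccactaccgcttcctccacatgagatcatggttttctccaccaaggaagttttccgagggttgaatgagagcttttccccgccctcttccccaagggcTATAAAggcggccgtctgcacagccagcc

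Tnfrsf1b, chr4:145246871-145247120, minus strand: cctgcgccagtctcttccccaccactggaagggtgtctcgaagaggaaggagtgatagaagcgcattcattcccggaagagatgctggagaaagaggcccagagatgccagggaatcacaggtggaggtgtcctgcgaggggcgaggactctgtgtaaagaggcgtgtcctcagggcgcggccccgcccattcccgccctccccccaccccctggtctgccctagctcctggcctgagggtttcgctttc

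Tnfrsf9 start 1, chr4:150919905-150920154, plus strand: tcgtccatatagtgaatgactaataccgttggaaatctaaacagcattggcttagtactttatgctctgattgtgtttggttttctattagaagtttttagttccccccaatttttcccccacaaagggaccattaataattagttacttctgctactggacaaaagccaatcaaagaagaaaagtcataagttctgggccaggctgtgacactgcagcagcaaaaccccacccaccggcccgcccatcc

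Tnfrsf9 start 2, chr4:150927749-150927998, plus strand: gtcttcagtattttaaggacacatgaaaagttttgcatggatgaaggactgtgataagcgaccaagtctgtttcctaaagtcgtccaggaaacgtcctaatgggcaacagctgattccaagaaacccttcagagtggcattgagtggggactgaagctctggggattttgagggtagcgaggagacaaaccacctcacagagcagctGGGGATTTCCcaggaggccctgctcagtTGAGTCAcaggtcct

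The TATA box of Tnf lay 29 to 24 bases before its start. The second start of Tnfrsf9 held a kappaB motif, GGGGATTTCC, 43 to 34 bases before it and an AP-1 motif, TGAGTCA, 15 to 9 bases before it; its first start and that of Tnfrsf1b held none of the 3 motifs. The kappaB letters occurred in 3 of the 26 member starts (Ltb, Tnfrsf9 and Tnfrsf25) and in 1.41% of 32851 promoters of the same length. The AP-1 letters occurred in 6 of 26 against 6.75%, and the TATA box in 2 of 26 against 7.59%. A match describes the letters only.

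Tnf itself, the founding ligand, stood higher after DNBS than in healthy mucosa, though the difference did not pass. Its −ΔCt was −5.96, −7.04, −5.49 and −6.23 in healthy samples 3, 4, 5 and 6. It was −3.91, −4.62, −4.65 and −4.57 in DNBS samples 2, 3, 4 and 5. Every DNBS sample lay above every healthy one. In DNBS_CEC samples 1, 2, 6 and 8 it was −4.11, −5.20, −5.19 and −6.51, and in DNBS_Nissle samples 1, 4, 5 and 7 it was −2.78, −7.77, −4.16 and −5.10. Both these groups overlapped with healthy mucosa, and DNBS_Nissle held both the highest and the lowest Tnf of all 16 samples.

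Tnfrsf1b, encoding TNFR2, was lowest on average in healthy mucosa. Its level was −2.24, −2.00, −1.83 and −1.50 in the healthy samples and −0.99, −0.64, −0.79 and −1.54 in the DNBS samples, in the same order as above. It was −0.25, 0.46, −1.40 and −1.77 in DNBS_CEC and 0.13, −0.31, −0.73 and −1.12 in DNBS_Nissle. All DNBS_Nissle samples lay above all healthy ones; DNBS overlapped with healthy through sample 5, and DNBS_CEC through sample 8. Tnfrsf1a, encoding TNFR1, had means of −1.06 ± 0.14 in healthy, −0.71 ± 0.55 in DNBS, −0.51 ± 0.52 in DNBS_CEC and −0.60 ± 0.48 in DNBS_Nissle mucosa (± SD, n = 4).

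The lymphotoxin branch shapes lymphoid tissue. Ltb, a lymphotoxin subunit, averaged −3.66 ± 0.58, −3.71 ± 0.94, −4.22 ± 0.96 and −4.32 ± 0.65 in healthy, DNBS, DNBS_CEC and DNBS_Nissle mucosa, the order kept from here on. Its receptor Ltbr averaged −0.75 ± 0.13, −0.52 ± 0.71, −0.19 ± 0.44 and −0.36 ± 0.40. Tnfrsf14 (HVEM), which binds LIGHT, averaged −1.21 ± 0.27, −1.33 ± 0.52, −1.30 ± 0.74 and −1.42 ± 0.31. Groups overlapped for these 3 genes. Tnfsf14, encoding LIGHT, had levels of −7.88, −7.50, −7.60 and −7.40 in healthy samples, the first of them not detected. The levels were −6.17, −5.95, −7.83 and −7.32 in DNBS, −8.55, −8.06, −7.49 and −8.37 in DNBS_CEC, and −6.85, −9.14, −5.86 and −7.46 in DNBS_Nissle, where sample 4 was not detected. Every DNBS sample but sample 4 stood above all healthy and DNBS_CEC samples.

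**Figure D2:**
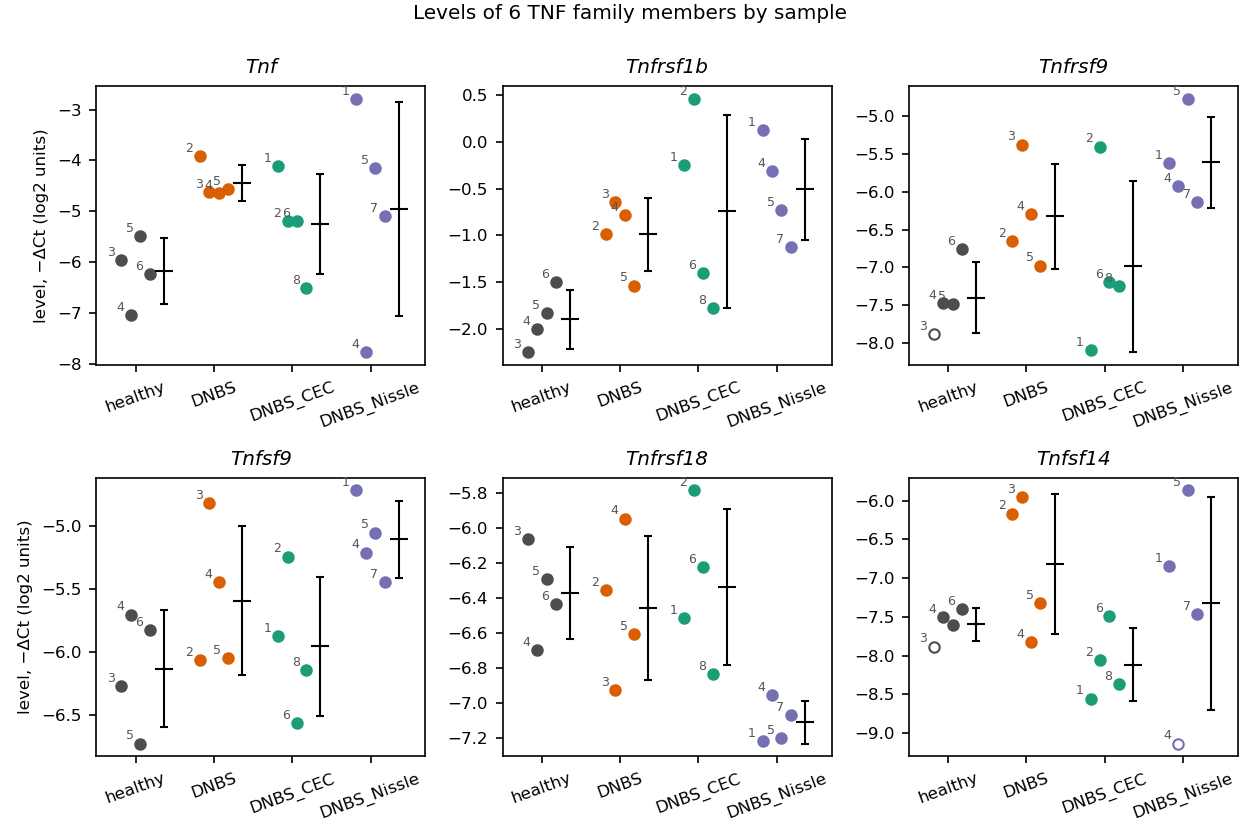
Levels (−ΔCt, log2 units) of 6 members in each sample by group; numbers are sample numbers, open circles wells not detected, and the black bar the mean ± SD of 4 samples. Tnf ran from −7.77 to −2.78 within DNBS_Nissle, while Tnfrsf18 in that group stayed between −7.22 and −6.96.

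Tnfsf9 and Tnfrsf9 encode 4-1BBL and its receptor 4-1BB, a pair that costimulates T cells, and both were highest on average in DNBS_Nissle. Tnfrsf9 was −7.88 (not detected), −7.48, −7.49 and −6.75 in healthy samples, −6.66, −5.38, −6.29 and −6.98 in DNBS, −8.10, −5.40, −7.19 and −7.25 in DNBS_CEC, and −5.62, −5.92, −4.77 and −6.14 in DNBS_Nissle. Its DNBS_Nissle samples all lay above its healthy ones, and within DNBS_CEC sample 2 stood far above the rest. Tnfsf9 was −6.27, −5.71, −6.73 and −5.83 in healthy samples, −6.07, −4.82, −5.45 and −6.05 in DNBS, −5.88, −5.25, −6.57 and −6.14 in DNBS_CEC, and −4.72, −5.21, −5.05 and −5.45 in DNBS_Nissle. Here too DNBS_Nissle did not overlap with healthy.

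Tnfrsf18 encodes GITR, a receptor abundant on regulatory T cells, and was lowest on average in DNBS_Nissle. Its levels were −6.06, −6.70, −6.29 and −6.43 in healthy samples, −6.36, −6.93, −5.95 and −6.61 in DNBS, −6.51, −5.78, −6.22 and −6.84 in DNBS_CEC, and −7.22, −6.96, −7.20 and −7.07 in DNBS_Nissle. The DNBS_Nissle samples lay below every other sample; the value of sample 1 there was a filled-in one, so 3 measured values stand behind the group. The T cell markers Cd4 and Cd28 summed to between 0.0158 and 0.0312 of the reference level in DNBS_Nissle, against 0.0354 to 0.0579 in healthy mucosa, 0.0092 to 0.0744 in DNBS and 0.0191 to 0.0993 in DNBS_CEC; their part in the result was not tested.

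Of the other costimulatory genes, Cd40, the receptor through which T cells license B cells and antigen-presenting cells, averaged −4.86 ± 0.52, −5.14 ± 0.64, −4.95 ± 0.91 and −4.54 ± 1.17. Tnfrsf4 (OX40) averaged −7.22 ± 0.13, −7.11 ± 0.86, −6.55 ± 0.78 and −7.04 ± 1.39. Tnfsf8 (CD30 ligand) averaged −7.84 ± 0.28, −8.29 ± 0.77, −7.99 ± 0.65 and −7.69 ± 0.94, with 1 undetected well each in DNBS and DNBS_CEC and a filled-in value in DNBS_CEC sample 6. Their groups overlapped throughout. Tnfsf15 (TL1A), the ligand of DR3, averaged −6.91 ± 0.43, −7.66 ± 0.39, −7.38 ± 0.93 and −7.47 ± 0.59.

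The 5 untested genes lay at the edge of detection. Tnfrsf25, which encodes DR3, was detected in 1 healthy, 1 DNBS, 2 DNBS_CEC and all 4 DNBS_Nissle samples. Detection was read from raw Ct, whose Tnfrsf25 group means were 28.20, 28.71, 28.49 and 27.57. Its mean −ΔCt was −8.38, −8.55, −8.47 and −8.50, with undetected wells at the limit, so the level was not seen to be higher in DNBS_Nissle. The undetected wells of healthy sample 3 and DNBS_CEC sample 6 held filled-in values. Detection was said to differ where 3 or 4 samples of a group, but only 0 or 1 of its counterpart, detected the gene. By that rule Tnfrsf25 differed in DNBS_Nissle against healthy and against DNBS, no other member differed in any of the 6 pairs of groups, and each difference gave p = 0.143 (adjusted p = 1) in the two-sided Fisher's exact test. Across the panel 20 of 584 genes differed in this way between DNBS_Nissle and healthy, and 7 between DNBS_Nissle and DNBS. Cd40lg, the ligand of CD40 on T cells, was detected in 2 samples, both DNBS_CEC, and 1 of these was a filled-in value. Tnfsf18 (GITR ligand) was detected in 1 DNBS and 1 DNBS_Nissle sample. Tnfsf4 (OX40 ligand) amplified below a Ct of 40 in 1 healthy, 1 DNBS, 4 DNBS_CEC and 4 DNBS_Nissle samples, always above 28, 1 of the DNBS_CEC values being filled in. Tnfrsf8 (CD30) amplified in all 16 samples, with a lowest Ct of 28.38.

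Fas, the death receptor, averaged −3.51 ± 0.18, −3.34 ± 0.51, −3.15 ± 0.65 and −3.10 ± 0.58, and its ligand Fasl, made by cytotoxic lymphocytes, −8.07 ± 0.54, −7.67 ± 0.61, −8.03 ± 0.34 and −8.18 ± 0.50. Fasl was not detected in 1 healthy and 1 DNBS_Nissle sample, and its value in DNBS_Nissle sample 4 was filled in. Tnfsf10 (TRAIL), another death ligand, averaged −2.55 ± 0.57, −2.62 ± 1.03, −2.51 ± 1.12 and −2.76 ± 0.10. The last SD includes a filled-in value, that of DNBS_Nissle sample 1.

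Tnfsf11 (RANKL), known from bone, averaged −7.14 ± 0.34, −6.67 ± 1.09, −7.05 ± 1.13 and −7.14 ± 0.77. Its decoy receptor Tnfrsf11b (osteoprotegerin) averaged −5.20 ± 0.50, −4.33 ± 0.49, −4.89 ± 0.27 and −4.64 ± 0.99. The B cell survival factors Tnfsf13 (APRIL) and Tnfsf13b (BAFF) had overlapping groups. Tnfsf13 averaged −2.45 ± 0.37, −2.58 ± 0.38, −2.45 ± 0.80 and −2.75 ± 0.78. Tnfsf13b averaged −3.47 ± 0.20, −3.76 ± 0.31, −3.39 ± 0.51 and −3.77 ± 0.48. Tnfsf12 (TWEAK) averaged −4.21 ± 0.54, −4.03 ± 0.54, −4.70 ± 1.10 and −5.37 ± 1.73, with DNBS_Nissle sample 4 at −7.92. The assays of Tnfsf12 and Tnfsf13 are both listed with the joint name Tnfsf12-tnfsf13 as well. Their values here and below may therefore not be of TWEAK alone or APRIL alone. Tnfrsf19 (TROY), a receptor known from intestinal stem cells, averaged −5.94 ± 0.78, −6.62 ± 0.87, −6.90 ± 1.75 and −7.38 ± 1.28, and was not detected in DNBS_CEC sample 2 and DNBS_Nissle sample 4.

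DNBS was compared with healthy mucosa to see what the hapten did to the family. Of the 23 members 0 passed, where 0.211% of the 473 genes tested did (1 gene, Nos2). Tnf was higher by 1.74 ± 0.78, or 3.34-fold (adjusted p = 0.437). The two-sided exact permutation test gave p = 0.0286 (adjusted p = 0.338). That is the smallest p that 4 against 4 allow, and any gene without overlap gives it. Tnf was the only member with an unadjusted p under 0.05 in limma, against 9.73% of all genes. It was also the only one whose groups did not overlap, against 8.46%. Tnfrsf9 was higher by 1.08 ± 0.52 (adjusted p = 0.524), Tnfrsf1b by 0.91 ± 0.44 (adjusted p = 0.524) and Tnfrsf1a by 0.35 ± 0.35 (adjusted p = 0.869), and the 2 assays of Tnfrsf1a gave 0.41 and 0.28. The Tnfrsf1a difference was 0.10 without DNBS sample 4 and 0.11 with the global mean as reference. In all, 13 of 23 members were higher, with a median of 0.17, beside 282 of 473 genes and a median of 0.12. With the global mean as reference both medians shifted alike, to −0.06 and −0.11.

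The neutrophil markers S100a8, S100a9, Ltf, Camp and Il8rb summed to between 0.557 and 50.1 of the reference level in DNBS, 0.0761 and 7.26 in DNBS_CEC and 4.46 and 12.1 in DNBS_Nissle, against 0.0317 to 0.0987 in healthy mucosa. The myeloid markers summed to 0.692 to 1.95, 0.545 to 1.29 and 0.55 to 1.5, against 0.664 to 0.935. The endothelial markers Selp and Sele summed to 0.0121 to 0.151 in DNBS, 0.0107 to 0.0539 in DNBS_CEC and 0.0594 to 0.290 in DNBS_Nissle, against 0.0068 to 0.0153 in healthy mucosa. In DNBS_Nissle this sum did not overlap with that of healthy mucosa. Sele is also on the list of TNF-induced genes read below, so the sum is not of cell markers alone. Only Selp, P-selectin, was detected often enough to be tested, and in DNBS_Nissle it rose by 3.26 ± 0.71 over healthy (adjusted p = 0.0209). With 1 sample left out it passed in 10 of 16 fits, and the call was lost without any 1 of the healthy samples or DNBS_Nissle sample 1 or 4, and without the values of few decimals. The part of these 3 marker lists in the differences of Tnf, Tnfrsf1b and Tnfrsf9 was not tested.

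The DNBS_CEC comparison with healthy mucosa used the same healthy samples. None of the 23 members passed, nor did any of the 474 genes (0%). Tnfrsf1b was higher by 1.15 ± 0.44, or 2.22-fold (adjusted p = 0.669), the only member with an unadjusted p under 0.05, against 5.49% of genes. Ltbr was higher by 0.56 ± 0.36, Tnfrsf1a by 0.55 ± 0.35 and Tnf by 0.93 ± 0.78 (adjusted p = 0.903 for each). No member's groups failed to overlap, against 3.16% of genes. Without DNBS_CEC sample 2 the Tnfrsf1b difference was 0.75, and without DNBS_CEC sample 1 that of Tnf was 0.55. With Ywhaz and Rplp2 left out of the reference Ltbr was higher by 0.33 and Tnfrsf1a by 0.31. Of the 23 members 14 were higher, with a median of 0.04 beside 0.09 for all genes. Both medians shifted alike, to −0.20 and −0.15, when Ywhaz and Rplp2 were left out of the reference.

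DNBS_Nissle against healthy mucosa, again with the same healthy samples, gave the lowest p-values of the family. Tnfrsf9 was higher by 1.79 ± 0.52, or 3.46-fold, with a 95% interval from 0.69 to 2.89 (adjusted p = 0.0937). Tnfrsf1b was higher by 1.38 ± 0.44, or 2.61-fold (adjusted p = 0.132), Tnfsf9 by 1.03 ± 0.37, or 2.04-fold (adjusted p = 0.196), and Tnf by 1.23 ± 0.78 (adjusted p = 0.461). Tnfrsf18 differed by −0.74 ± 0.30 (adjusted p = 0.237). None of the 23 passed, while 2.11% of 473 genes did. Of the 23 members 4, or 17.4%, had an unadjusted p under 0.05, beside 15.9% of all genes, and the same 4 did not overlap, 17.4% beside 13.3%. Both shares are near those of the panel. Tnfrsf9 passed in 2 alternatives: fitting only the groups compared (adjusted p = 0.0344) and leaving out DNBS_CEC sample 2, which lies outside the comparison (adjusted p = 0.0238). Tnf depended on single samples, with 0.50 without DNBS_Nissle sample 1 and 2.17 without sample 4.

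**Figure D3:**
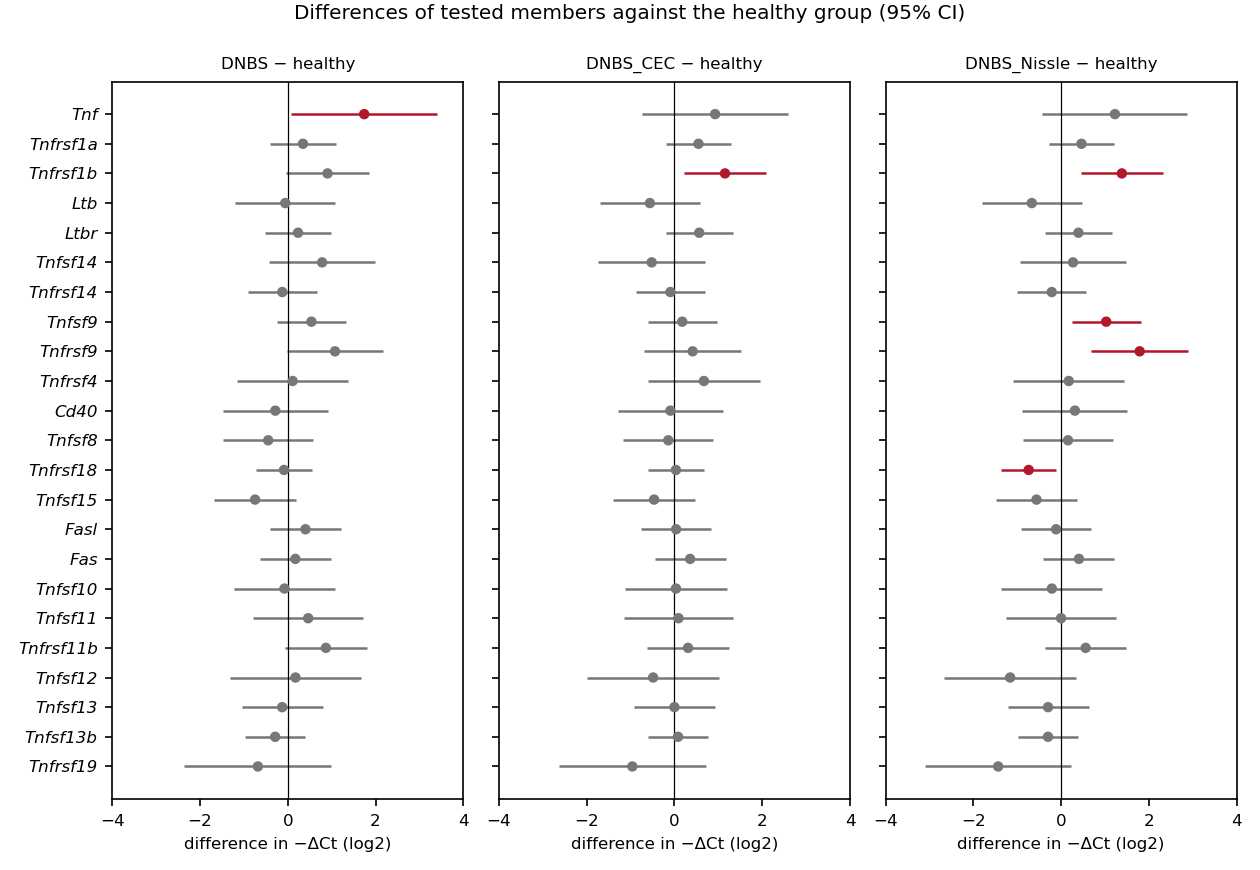
Difference in −ΔCt (log2) from healthy mucosa of the 23 tested members in DNBS, DNBS_CEC and DNBS_Nissle; points are limma estimates, lines 95% intervals, and red marks an unadjusted p under 0.05. Tnf is red in the DNBS panel, Tnfrsf1b in the DNBS_CEC panel, and Tnfrsf1b, Tnfsf9, Tnfrsf9 and Tnfrsf18 in the DNBS_Nissle panel; no member passed after adjustment.

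With all 3 DNBS groups set together against healthy mucosa, Tnfrsf1b was higher by 1.15 ± 0.36 (adjusted p = 0.138), Tnfrsf9 by 1.09 ± 0.42 (adjusted p = 0.254) and Tnf by 1.30 ± 0.64 (adjusted p = 0.375). None of the 23 members passed, against 1.92% of 469 genes. Tnfrsf1b and Tnfrsf9 had an unadjusted p under 0.05, 8.7% of the members beside 12.8% of genes, and 0 members did not overlap, beside 1.71%. In the test of any difference among the 4 groups, the adjusted p was 0.439 for Tnfrsf9, 0.523 for Tnfrsf1b, 0.64 for Tnfsf9 and 0.882 for Tnf. There 0% of genes passed, and 2 members, 8.7%, had an unadjusted p under 0.05 beside 8.1% of genes.

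The oral treatments were then compared with DNBS alone. In DNBS_CEC against DNBS, 0 of 23 members and 0% of 490 genes passed. Tnfsf14 differed by −1.30 ± 0.57 (adjusted p = 0.994), the only member with an unadjusted p under 0.05, against 1.63% of genes, and its groups overlapped. Tnfrsf9 differed by −0.66 ± 0.52, Tnfrsf11b by −0.56 ± 0.44 and Tnf by −0.81 ± 0.79 (adjusted p = 0.994 for each). Without 1 sample, Tnf differed by −0.40 (DNBS_CEC sample 8), Tnfrsf11b by −0.35 (DNBS sample 3), and Tnfrsf9 by −1.19 (DNBS_CEC sample 2), −0.29 (DNBS_CEC sample 1) or −0.35 (DNBS sample 3). The interval for Tnf ran from −2.48 to 0.85, so that neither a lower nor a somewhat higher level is settled. No member's groups failed to overlap, beside 0.612% of genes.

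In DNBS_Nissle against DNBS, which shares the DNBS samples with the comparison above, 0 members and 0% of genes passed. Tnfrsf18 differed by −0.65 ± 0.30 (adjusted p = 0.977), the only member with an unadjusted p under 0.05 (1.43% of genes) and the only one without overlap (1.02% of genes). Without the filled-in values it differed by −0.62, and with Gapdh alone as reference by −0.43. Tnfsf12 differed by −1.34 ± 0.71 (adjusted p = 0.977), and by −0.49 without DNBS_Nissle sample 4. Tnfrsf9 was higher by 0.71 ± 0.52 (adjusted p = 0.977), and by 0.43 without DNBS_Nissle sample 5, whose value has few decimals. Tnf differed by −0.52 ± 0.79 (adjusted p = 0.984), and its sign turned, to 0.42, without DNBS_Nissle sample 4; it was −1.24 without DNBS_Nissle sample 1, −0.78 without DNBS_Nissle sample 5 and −0.34 without DNBS sample 2.

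Between the oral treatments, DNBS_CEC minus DNBS_Nissle, Tnfrsf9 differed by −1.38 ± 0.52, Tnfsf9 by −0.85 ± 0.37 and Tnfrsf18 by 0.77 ± 0.30 (adjusted p = 0.971 for each). These 3 members, 13% of the 23, had an unadjusted p under 0.05, beside 4.52% of 487 genes. Only Tnfrsf18 did not overlap, beside 1.85% of genes. Of the members 0 passed, as did 0% of genes. The Tnfrsf9 difference was −1.90 without DNBS_CEC sample 2 and −1.01 without DNBS_CEC sample 1, and that of Tnfrsf18 was 0.43 with Gapdh alone as reference. Tnf differed by −0.30 ± 0.78 (adjusted p = 0.971), and by 0.42 without DNBS_Nissle sample 1, 0.12 without DNBS_CEC sample 8, −0.03 without DNBS_Nissle sample 5, −0.68 without DNBS_CEC sample 1 and −1.24 without DNBS_Nissle sample 4.

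**Figure D4:**
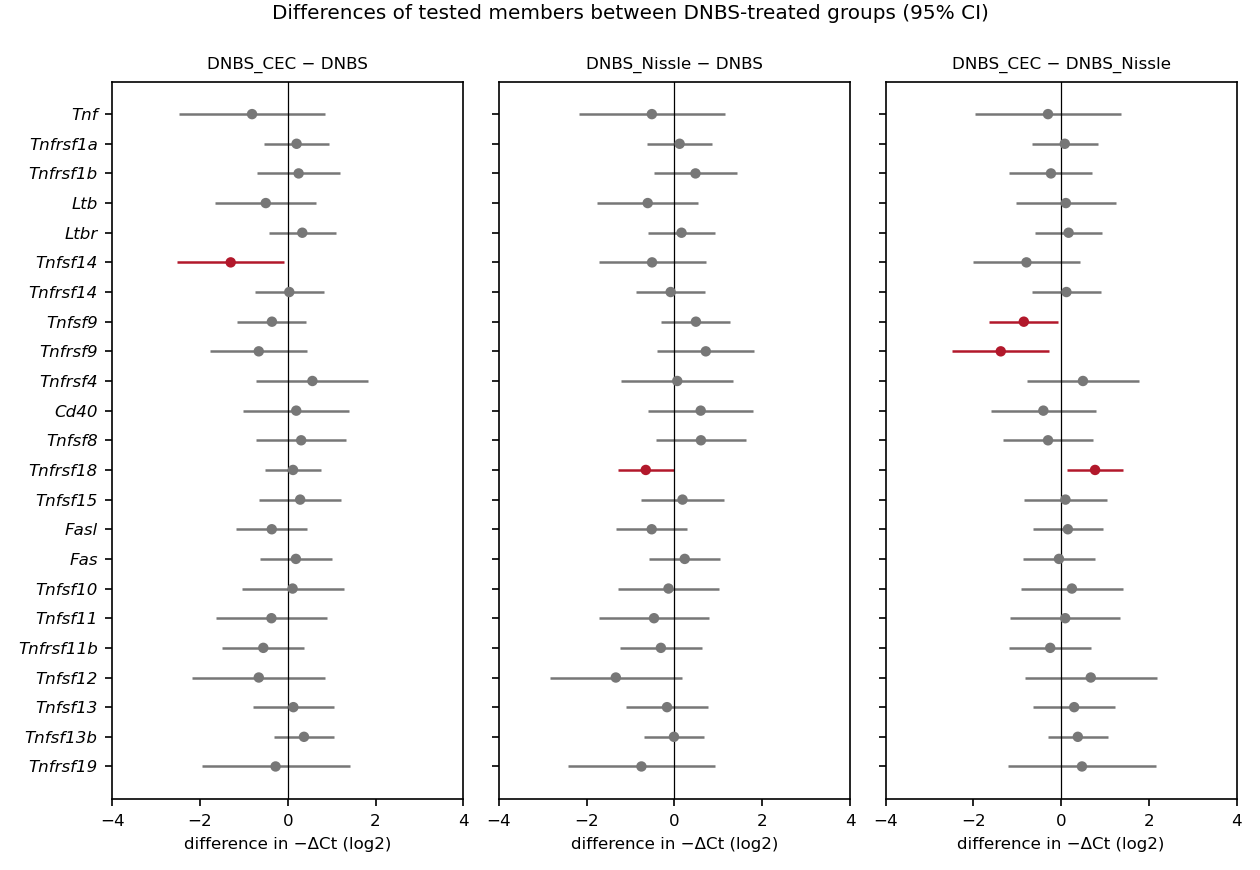
Difference in −ΔCt (log2) of the 23 tested members between the groups given DNBS; points are limma estimates, lines 95% intervals, and red marks an unadjusted p under 0.05. Red marks Tnfsf14 in the first panel, Tnfrsf18 in the second, and Tnfsf9, Tnfrsf9 and Tnfrsf18 in the third.

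Genes downstream of the receptors were read beside the family. Of 34 listed signalling genes, 9 were analysed here: Ripk2, Casp8, Mapk8, Mapk14, Nfkb1, Rela, Tnfaip3, Jun and Fos. Of these 9, 0 passed in any comparison. The adaptors of the list, such as Tradd, Fadd and the TRAF genes, were not among them. The median difference of the 9 from healthy was 0.25 in DNBS, 0.19 in DNBS_CEC and 0.05 in DNBS_Nissle. Of 16 genes that TNF is known to induce, 12 were tested in DNBS against healthy; 10 were higher and 1 passed, Nos2, the inducible nitric oxide synthase, which rose by 3.83 ± 0.72 (adjusted p = 0.0357). In DNBS_CEC 11 of 11 were higher and 0 passed. In DNBS_Nissle 11 of 12 were higher and 3 passed: the neutrophil chemokine Cxcl5 rose by 3.79 ± 0.71 (adjusted p = 0.0115), Il1b by 4.76 ± 1.03 (adjusted p = 0.0209) and Nos2 by 3.13 ± 0.72 (adjusted p = 0.0307). With 1 sample left out in turn, Nos2 passed in 8 of 16 fits in DNBS, and in DNBS_Nissle Cxcl5 passed in 15, Il1b in 11 and Nos2 in 10 of 16. Lost with a DNBS or DNBS_Nissle sample of the comparison were Nos2 in DNBS (without sample 2, 3 or 5) and Il1b and Nos2 in DNBS_Nissle (without sample 1 or 5, and for Nos2 also 7). Without healthy sample 3 all 4 calls were lost, without healthy sample 4 those of Nos2 and Il1b, without healthy sample 5 that of Il1b, and without healthy sample 6 those of Nos2; Nos2 in DNBS was lost as well without DNBS_Nissle sample 5 or 7, and with Gapdh alone or the global mean as reference. The medians of this list were 1.96, 1.10 and 2.67 from healthy, beside 0.12, 0.09 and −0.09 for all genes tested. The list was written with earlier results of these data known, so its medians are not a test. Other signals induce these genes too, the 3 comparisons share their healthy samples, and the part of the neutrophil markers given above was not tested.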

How the data were processed

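The authors deposited raw cycle thresholds (Ct, a unit recorded as other), whose first line calls the table a truncated example; 40 stands for no amplification. The panel was the TaqMan OpenArray Mouse Inflammation Panel, per the labels' protocols. Thresholding software is not given in the sources used here. A Ct gives no molecule count, and therefore no interval for counting error is given.

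The reference was the mean of 13 endogenous control genes (19 assays), among them Actb, Gapdh and Polr2a. Assays of a gene detected in most samples were averaged. A gene was tested when detected in at least 3 of 4 samples of each group used. Differences were fitted with limma 3.58.1 in R 4.3.3 over 16 samples (12 residual degrees of freedom), with Benjamini-Hochberg adjustment over all genes of each comparison and a threshold of 0.05. The fit was tested on simulated data. Detection was compared with Fisher's exact test.

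Members, lists and tests were chosen with earlier results of these data known. Differences are printed for Tnf in every comparison, for Tnfrsf1a and Tnfrsf1b in DNBS against healthy, and for the 3 members with the lowest p in each comparison. Values of every sample are printed for Tnf and for members with an unadjusted p under 0.05 between any pair of groups; Tnfrsf18 in DNBS_Nissle against healthy, and other values from alternatives, were named after they were seen. Alternatives changed the reference, the detection limit and the handling of undetected values, filled-in values and values of few decimals. They also changed the assay choice, the samples fitted, the test, and the title number as a block. No pairing was used. Samples of the same number did not deviate together more than others, but 10 pairs are too few to exclude a shared block. Some reference genes are not reported here by name.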

Additional observations from a re-analysis of the deposited data

Results flagged for a closer look

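In 84 sets of 4 detected values (a member in a group), 4 had 1 sample apart from the others by more than Dixon's 95% critical value, where chance alone gives about 1 in 20. In DNBS, sample 2 had a Tnf level of −3.91 (−ΔCt, log2), against −4.65 to −4.57 in the other samples. The remaining 3 were all DNBS_CEC sample 2: Cd40 at −3.60 against −5.52 to −5.21, Fasl at −7.53 against −8.25 to −8.17, and Tnfsf11 at −5.37 against −7.79 to −7.47. The cause was not tested.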

How the results depend on the processing

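The count of members that passed stayed at 0 under every alternative run, except in DNBS_Nissle against healthy. There it was 1 (Tnfrsf9) with only the groups compared in the fit. It was between 0 and 1 when samples were left out in turn, the 1 being without DNBS_CEC sample 2. The Tnfrsf9 difference was 1.79 in both settings, as reported, so only its SE and p changed. Its SD was 1.13 in DNBS_CEC, against 0.47 in healthy, 0.69 in DNBS and 0.60 in DNBS_Nissle. The part of that spread was not tested. At a limit of Ct 26 only 12 to 15 members were tested, and the exact permutation test, whose smallest p is 0.0286, says nothing about stability here. Over all genes, the number that passed ranged from 0 to 7 in DNBS against healthy (1 as reported), 0 to 1 in DNBS_CEC against healthy (0), 0 to 20 in DNBS_Nissle against healthy (10), 0 to 1 between the oral treatments (0), 0 to 12 for the 3 DNBS groups together (9) and 0 to 8 for any difference (0). The number of members that differed in detection, summed over the 6 pairs of groups, was 2 at a limit of Ct 28, 5 at Ct 26, 4 at Ct 30, and 2 to 3 with samples left out. Tnf turned sign in 2 of the 3 comparisons between the DNBS groups, and not in DNBS_CEC minus DNBS. DNBS_CEC minus DNBS_Nissle ran from −1.24 to 0.42 with 1 sample left out (0.12 without DNBS_CEC sample 8), and was 0.42 without healthy sample 3 and DNBS_Nissle sample 1 together. DNBS_Nissle minus DNBS ran from −1.24 to 0.42, and was 0.42 without DNBS_CEC sample 2 and DNBS_Nissle sample 4 together; both joint settings were chosen after seeing the data. With the title number as a replicate block 0 members passed in each comparison, and Tnfrsf9 in DNBS_Nissle against healthy was 2.43 (adjusted p = 0.19). That block also ended the calls of Cxcl5, Il1b, Nos2 and Selp in DNBS_Nissle against healthy, and Tnf was then 0.25 in DNBS_CEC and 0.65 in DNBS_Nissle against healthy. Same-numbered samples correlated between −0.51 and 0.41 over 10 pairs (median −0.13). Samples of other numbers correlated between −0.51 and 0.70 over 86 pairs (median −0.005). With so few pairs, whether the numbers mark a shared block cannot be settled. The median SE of a member was 0.44 in DNBS against healthy, with a median half-width of the 95% interval of 0.94, so a smaller difference was mostly not detectable even before adjustment.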
